A study of Mus musculus with 9 samples.

Results

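The 34 genes described here code for the sensors of the unfolded protein response, for chaperones and folding enzymes of the endoplasmic reticulum (ER), for proteins of ER-associated degradation (ERAD) and for targets of the PERK-ATF4 branch. They were chosen by gene symbol, with earlier results of these data known, and all 34 were found among the 35275 genes of the deposited count table. By role they comprised 4 sensors and transducers, 14 chaperones and folding enzymes known as targets of ATF6 or XBP1, 8 ERAD genes and 8 genes of the PERK-ATF4 branch. RNA was sequenced in bulk from the front of the newborn mouse eye at postnatal day 0, which held the cornea with the iris, the ciliary body and the drainage tissue, the lens having been taken out. The study compared 3 wildtype libraries, Col4a1+/+, with 6 mutant libraries, Col4a1+/G1344D, which carry a glycine-to-aspartate change in 1 copy of the gene for the collagen α1(IV) chain. Each library was a pool of 4 eyes from 2 mice, so p-values measure the spread between pools, and neither strain nor sex was given in the labels. The libraries held 25995340 to 35306935 counts assigned to genes. In such bulk samples, fewer cells of a type and less RNA per cell cannot be told apart.

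Proteins that enter the ER fold there with the help of chaperones, and the unfolded protein response matches that capacity to the load. The response has 3 sensors in the ER membrane. IRE1α (Ern1) splices the Xbp1 mRNA, ATF6 is cut in the Golgi to release a transcription factor, and PERK (Eif2ak3) phosphorylates eIF2α, which slows protein synthesis while favouring translation of ATF4. All 3 sensors act after transcription, so that their activity, like the splicing of Xbp1, is not read by counts per gene. The mRNAs of Hspa5, Herpud1, Sdf2l1, Ddit3 and other targets are the usual transcript readout. Type IV collagen folds as a triple helix in the ER, a step in which glycine is needed at every repeat of the chain, and glycine substitutions in COL4A1 are known to leave collagen retained inside cells.

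ATF6 and XBP1 bind the ER stress response element (ERSE), which consists of CCAAT, then 9 unspecified bases, then CCACG. The 250 bases before the annotated start were searched on both strands in the RefSeq promoter table (GRCm38.p6), which held 30 of the 34 genes. Atf6, Manf, Hyou1 and Derl1 were not in it. The element was present in 9 of the 30 (30.0%) and in 37 of all 32851 promoters in the table (0.113%). With 1 mismatch allowed it was found in 14 of the 30 (46.7%) and in 432 promoters (1.32%). The exact matches are shown with 10 bases on either side, 5′ to 3′ along the gene's strand. Of the readout genes Hspa5, Herpud1, Sdf2l1 and Ddit3 named above, only Hspa5 had an exact match, and Ddit3 had the element with 1 mismatch. Capitals mark the 2 blocks of the element, which read CGTGG and ATTGG where it lies on the opposite strand.

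Hspa5, chr2:34772015-34772053, plus strand: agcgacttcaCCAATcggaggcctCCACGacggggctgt
Hsp90b1, chr10:86705523-86705561, minus strand: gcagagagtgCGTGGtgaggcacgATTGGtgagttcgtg
Hsp90b1, chr10:86705628-86705666, minus strand: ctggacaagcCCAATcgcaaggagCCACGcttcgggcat
Calr, chr8:84847065-84847103, minus strand: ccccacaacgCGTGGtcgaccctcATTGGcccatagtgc
Canx, chr11:50325790-50325828, minus strand: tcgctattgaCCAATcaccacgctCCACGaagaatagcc
Pdia6, chr12:17266481-17266519, plus strand: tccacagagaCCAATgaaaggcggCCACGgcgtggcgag
Dnajc3, chr14:118937817-118937855, plus strand: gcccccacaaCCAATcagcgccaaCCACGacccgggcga
Creld2, chr15:88819510-88819548, plus strand: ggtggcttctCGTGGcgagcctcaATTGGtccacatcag
Syvn1, chr19:6046522-6046560, plus strand: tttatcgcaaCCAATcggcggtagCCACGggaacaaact
Derl3, chr10:75893232-75893270, plus strand: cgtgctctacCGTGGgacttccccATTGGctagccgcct

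A related element, ERSE-II (ATTGG, any base, CCACG), was found in Herpud1 alone among the 30 (3.33%) and in 10 of all promoters (0.0304%). The ATF4 core TGATGNAA was found in Asns, Atf3, Chac1 and Herpud1 (13.3%, against 3.45% of all promoters, 1134 in number). The core TGACGTGG of XBP1 and ATF6 sites was found in none of the 30 and in 185 promoters (0.563%). No overlap between matches of different motifs was seen in these genes. The windows of Herpud1 and Asns are shown with the same marking, as the ERSE-II and ATF4 counterparts.

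Herpud1, chr8:94386367-94386397, plus strand: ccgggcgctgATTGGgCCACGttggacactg
Herpud1, chr8:94386307-94386334, plus strand: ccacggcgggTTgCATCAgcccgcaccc
Asns, chr6:7693215-7693242, minus strand: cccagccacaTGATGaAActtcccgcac

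**Figure D1:**
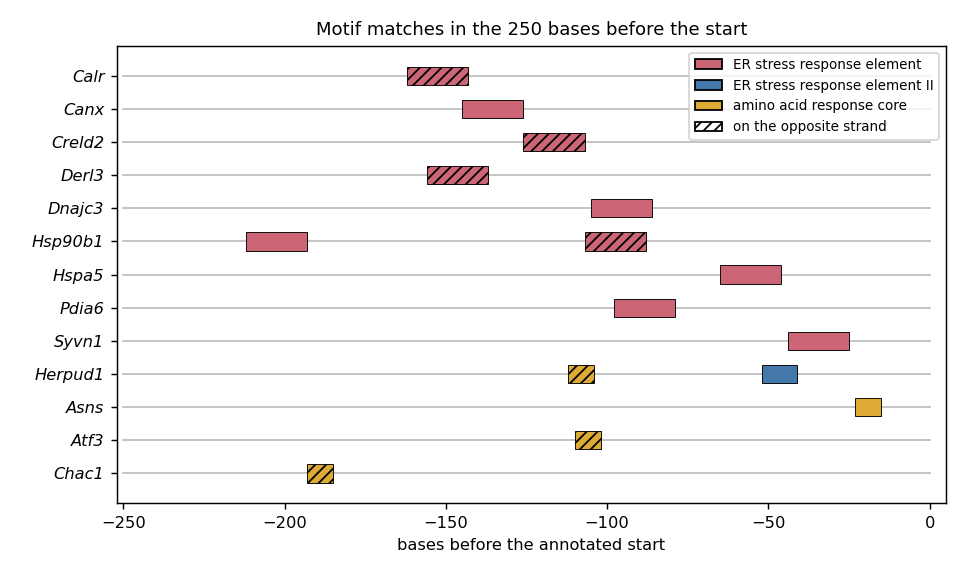
Each line is the promoter of 1 gene, with distance before the annotated start in bases on the horizontal axis, and boxes mark matches to 3 motifs, hatched where they lie on the opposite strand. The 10 ERSE matches lie in 9 genes, from the pair of Hsp90b1 to the match of Syvn1, which begins 44 bases before the start.

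None of the 9 genes with an exact ERSE match passed the test between genotypes. That was edgeR's quasi-likelihood test, with adjusted p under 0.05 after Benjamini-Hochberg correction over all 15825 genes tested. Canx and Syvn1 had an unadjusted p under 0.05 and passed with DESeq2. Sel1l, which passed as higher, has the element with 1 mismatch, as do Ddit3, Derl2, Pdia3 and Pdia4, which did not pass. Hyou1, also higher, was not in the promoter table. The log2 fold changes of the 9, mutant over wildtype, ran from -0.22 to 0.39 with a median of 0.14. Of the 21 other genes in the promoter table, 4 were higher and 1 was lower, with a median of -0.018. Over all tested genes 19.2% were called, so few calls would be seen among 9 genes at that share. Of 26 genes with an exact ERSE outside the 34, 9 were tested and 0 passed, with a median of -0.056.

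Levels are given as CPM, the count as a share of the TMM-scaled library total, and ratios are mutant over wildtype. All 34 genes had enough counts to be tested. In the mutants, 6 were higher (Atf6, Ern1, Hyou1, Sel1l, Edem1 and Sesn2), 1 was lower (Xbp1) and 27 did not pass. Over all tested genes, 9.70% were called higher and 9.47% lower. The median log2 fold change of the 34 was 0.016, beside -0.0019 for all tested genes, with 18 positive and 16 negative. At an unadjusted p under 0.05, 12 of the 34 passed, beside 5383 of all 15825 genes tested, which is close to the same share. Without wildtype 1 the sole call was Edem1, and without wildtype 3 the calls were Atf6 and Edem1, among 538 and 1669 genes called over the whole table in place of 3034. The mutant values all lay above the wildtype values for 6 genes (Atf6, Ern1, Hyou1, Sel1l, Syvn1 and Edem1), where 10.8% of all tested genes did so, and all lay below them for 3 (Xbp1, Derl1 and Atf4), where 11.2% did so.

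**Figure D2:**
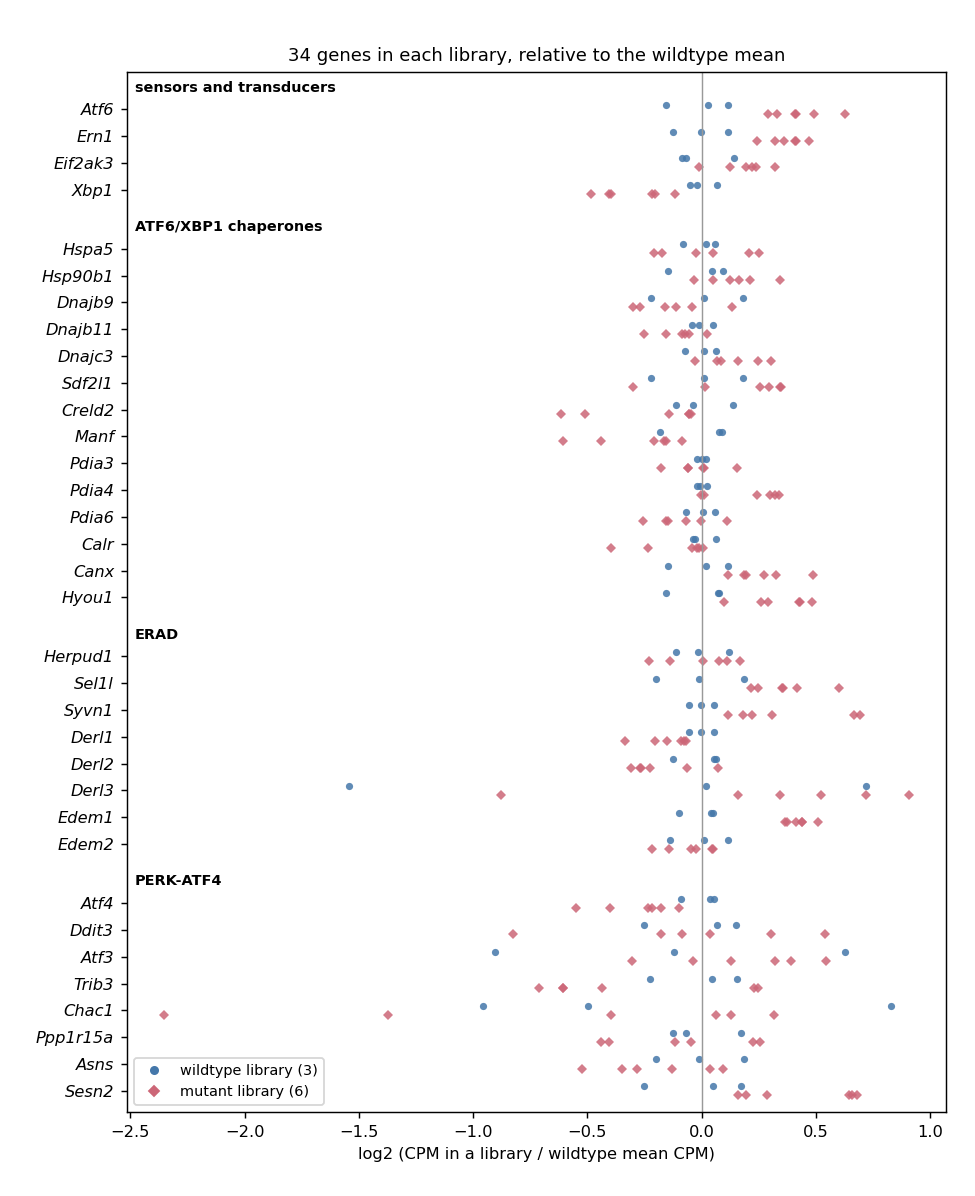
Each point is 1 library's CPM (counts scaled by TMM library sizes) for 1 of the 34 genes, as the log2 ratio to the wildtype mean, with 3 wildtype libraries in blue and 6 mutant libraries in red. Most genes have overlapping groups, while the mutants of Atf6, Ern1 and Edem1 lie to the right of every wildtype library and those of Xbp1 to the left.

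The changes that passed were all under 1.5-fold. For 25 of the 34 genes, the 95% interval of the ratio lay within 1.5-fold in either direction, all 14 chaperones and folding enzymes among them. The interval reached beyond 1.5-fold for Atf6, Ern1, Syvn1, Derl3, Edem1, Atf3, Trib3, Chac1 and Sesn2.

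Of the 4 sensors and transducers, Atf6 and Ern1 were higher, Xbp1 was lower and Eif2ak3 did not pass. Atf6 codes for the sensor that is itself the precursor of a transcription factor (GRCm38 chr1:170704674-170867771, minus strand). Its level was 45.5, 54.9 and 51.7 CPM in wildtype libraries 1, 2 and 3 and 62.0 to 78.3 (median 67.5) in the 6 mutant libraries. Every mutant value lay above every wildtype value. The means were 50.7 ± 4.75 and 68.4 ± 5.87 CPM (SD, n = 3 and 6), a 1.35-fold difference with a 95% interval of 1.17 to 1.55 (log2 0.43, SE 0.095, edgeR adjusted p = 0.00688). The call was lost without wildtype 1 (adjusted p = 0.0672).

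Ern1, which codes for IRE1α, the kinase and ribonuclease that splices Xbp1 (chr11:106394650-106487852, minus strand), stood at 16.6, 19.6 and 18.1 CPM in the wildtype libraries. The mutants ranged over 21.5 to 25.1 (median 23.7) CPM. The groups did not overlap, and the lowest mutant library was 5. The difference was 1.29-fold (1.11 to 1.51; log2 0.37, SE 0.10, edgeR adjusted p = 0.0211). It did not pass without wildtype 1 (adjusted p = 0.131) or wildtype 3 (0.0726).

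Eif2ak3, which codes for PERK, was measured at 30.2, 35.4 and 30.6 CPM in wildtype and 31.8 to 40.1 (median 37.0) in mutant libraries. Its groups overlapped through wildtype 2 and mutants 1 and 5. The ratio was 1.14 with an interval of 0.986 to 1.31 (edgeR adjusted p = 0.193). An opposite-strand gene, Gm43292, shares 8.05% of the exon bases of Eif2ak3 but was not among the counted genes.

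Xbp1, the mRNA on which IRE1α acts and the gene of a transcription factor of ERAD and chaperone genes (chr11:5520659-5525893, plus strand), went the other way. The wildtype libraries held 178, 164 and 167 CPM and the mutants 121 to 156 (median 137). All 6 mutant values were below all 3 wildtype values, with mutants 2, 4 and 5 the lowest. The means were 169.7 ± 7.40 and 138 ± 13.7 CPM (SD, n = 3 and 6), a 1.23-fold lower level in the mutants (interval of the ratio 0.718 to 0.921; log2 -0.30, SE 0.085, edgeR adjusted p = 0.0228). The call was lost without wildtype 1 (adjusted p = 0.134) or wildtype 3 (0.0685). Per kilobase of exon, where levels can be set between genes, Xbp1 was the most abundant of the 4 in wildtype at 52.2 CPM per kb, then Atf6 at 5.49, Eif2ak3 at 5.32 and Ern1 at 2.22. Spliced and unspliced Xbp1 are summed in its count. The summed CPM of the 4, which adds genes that differed in opposite directions, overlapped between genotypes, at 267 to 274 in wildtype and 244 to 289 in mutant libraries.

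Of the 14 chaperones and folding enzymes, 1 was higher (Hyou1), none was lower and 13 did not pass, with a median log2 fold change of 0.005 and with Pdia4 and Canx (higher) and Manf (lower) also at an unadjusted p under 0.05. The summed level of the 14 was 2957 to 3094 CPM in wildtype and 2859 to 3240 in mutant libraries, a ratio of 1.02. Hspa5 (BiP, the HSP70 of the ER that holds the sensors inactive; chr2:34771970-34777547, plus strand) carries the ERSE match nearest the start among the chaperones. Its level was 374, 413 and 401 CPM in wildtype and 343 to 472 (median 399.9) in mutant libraries. Mutants 1 and 4 lay below all wildtype libraries and mutants 3 and 6 above them. The means were 396 ± 20.1 and 404 ± 53.2 CPM, and the ratio of 1.02 had an interval of 0.878 to 1.18 (edgeR adjusted p = 0.882).

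The other chaperones with an ERSE gave ratios on both sides of 1. Hsp90b1 (GRP94, the HSP90 of the ER), with 2 matches, was measured at 162, 191 and 185 CPM in wildtype and 176 to 228 (median 198) in mutant libraries, with a ratio of 1.11 (0.975 to 1.26, edgeR adjusted p = 0.251). An antisense gene shares 10.3% of its exon bases, and no source used here states the strand setting of the counts. A counted gene on the same strand, Gm15344, shares 2.08% of the exon bases of Hsp90b1. Calr (calreticulin, the soluble lectin chaperone of glycoproteins) ran from 579 to 619.7 CPM in wildtype and 451 to 597 (median 581) in mutant libraries (ratio 0.928, 0.808 to 1.07). Canx (calnexin, the membrane-bound partner of calreticulin) was measured at 308, 369.6 and 345 CPM in wildtype and 369 to 479 (median 401) in mutant libraries. For Canx, wildtype 2 reached above the lowest mutant, and the ratio of 1.20 (1.05 to 1.38) fell just short of the threshold with an edgeR adjusted p of 0.0504. Dnajc3 (a BiP co-chaperone, also known as P58IPK) had means of 133 and 147 CPM, Pdia6 (a disulfide isomerase) 307 and 290.3, and Creld2 (an ER stress-induced secreted protein) 23.2 and 19.9. The edgeR adjusted p of these 3 were 0.231, 0.535 and 0.286, and their groups overlapped.

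Hyou1 (GRP170, the exchange factor of BiP; chr9:44379490-44392369, plus strand) was the chaperone that rose. Its level was 55.6, 65.3 and 65.1 CPM in wildtype and 66.4 to 86.8 (median 79.6) in mutant libraries. The lowest mutant, library 1, lay just above the 2 higher wildtype libraries, so the groups did not overlap. The means were 62.0 ± 5.53 and 78.4 ± 7.60 CPM (SD, n = 3 and 6), a ratio of 1.26 (1.10 to 1.46; log2 0.34, SE 0.10, edgeR adjusted p = 0.0233). Leaving out wildtype 1 (0.159), wildtype 3 (0.0534) or mutant 3 (0.0508) took its adjusted p over 0.05.

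The remaining 6 folding genes did not pass. Pdia4, a disulfide isomerase, had 109, 110.2 and 112 CPM in the wildtype libraries and 110.2 to 139.8 (median 133) in the mutants. Mutants 1 and 2 were at the wildtype level and the other 4 above it (ratio 1.16, 1.01 to 1.32, edgeR adjusted p = 0.112). Manf, a secreted ER stress-responsive factor, had 66.5, 55.7 and 67.1 CPM in wildtype and 41.4 to 59.4 (median 55.4) in mutant libraries, where wildtype 2 sat inside the mutant range (ratio 0.833, 0.706 to 0.981, edgeR adjusted p = 0.107). Dcaf1 and an antisense RNA, both on the opposite strand, share 4.14% and 4.71% of the exon bases of Manf. Pdia3 (ERp57, the isomerase that works with calnexin and calreticulin) was the highest per length at 213 CPM per kb in wildtype and 210.4 in mutants, with means of 669 ± 9.54 and 660.3 ± 50.8 CPM (edgeR adjusted p = 0.905). Dnajb9 (ERdj4) and Dnajb11 (ERdj3), J proteins that work with BiP, had ratios of 0.921 (0.788 to 1.08) and 0.935 (0.832 to 1.05). Sdf2l1, a partner of Dnajb11 that ER stress strongly induces, was low at 7.34, 6.26 and 8.27 CPM in wildtype and 5.92 to 9.28 (median 8.81) in mutant libraries, and the groups overlapped (ratio 1.13, 0.878 to 1.45).

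Of the 8 ERAD genes, Sel1l and Edem1 were higher, none was lower and 6 did not pass, and the median log2 fold change was 0.19. Their summed level was 540.3 to 558 CPM in wildtype and 557 to 606 in mutant libraries, a ratio of 1.06, with the lowest mutant just inside the wildtype range. Abundant genes weigh most in such a sum. Its means were 547 and 581 CPM, beside 118 and 153 for Sel1l and 194 and 174 for Derl1. Of the 8 log2 fold changes, 5 were positive and 3 negative. Edem1 codes for a mannosidase-like protein that sends misfolded glycoproteins to degradation (chr6:108828641-108859356, plus strand). It was measured at 47.7, 47.9 and 43.3 CPM in wildtype and 59.7 to 66.0 (median 62.2) in mutant libraries. Every mutant lay well clear of every wildtype library. The means were 46.3 ± 2.62 and 62.1 ± 2.30 CPM (SD, n = 3 and 6), a ratio of 1.34 (1.19 to 1.51; log2 0.42, SE 0.08, edgeR adjusted p = 0.00351). Edem1 was the sole member that passed whichever of the 9 libraries was left out, with adjusted p from 0.00213 to 0.0264.

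Sel1l and Syvn1 code for the 2 core parts of the retrotranslocation complex, the adaptor SEL1L and the ubiquitin ligase HRD1. Sel1l (chr12:91806043-91849157, minus strand) had 103, 134 and 117 CPM in the wildtype libraries and 137 to 179 (median 151) in the mutants. Its groups did not overlap, although wildtype 2 came near mutant 1. The ratio was 1.29 (1.12 to 1.49; log2 0.37, SE 0.10, edgeR adjusted p = 0.0161), and the call was lost without wildtype 1 (0.131) or wildtype 3 (0.0629). Syvn1, which carries an ERSE, had 29.7, 32.0 and 30.8 CPM in wildtype and 33.4 to 49.8 (median 37.0) in mutant libraries. All 6 mutants lay above the wildtype libraries, with mutants 3 and 4 far above the other 4. Its ratio of 1.30 (1.08 to 1.58) had an edgeR adjusted p of 0.0501, just over the threshold, and an opposite-strand gene, Mrpl49, shares 1.87% of its exon bases.

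The derlins, channel proteins of the same complex, did not pass. Derl1 had 201, 187 and 194 CPM in the wildtype libraries and 154 to 185 (median 178) in the mutants. All mutant values were below the wildtype values, yet the ratio of 0.900 (0.807 to 1.005) gave an edgeR adjusted p of 0.166. Derl2 had means of 46.6 and 41.4 CPM (edgeR adjusted p = 0.246). Derl3, a derlin that XBP1 is known to induce, was close to absent, at 9, 3 and 15 counts in the wildtype libraries and 5 to 20 in the mutants, and its ratio had an interval of 0.558 to 3.08. Herpud1, which links the ligase to the derlins and carries both ERSE-II and the ATF4 core shown above, had 73.6, 80.8 and 68.7 CPM in wildtype and 63.4 to 83.5 (median 76.5) in mutant libraries. The mutant range enclosed the wildtype range (ratio 1.004, 0.871 to 1.16, edgeR adjusted p = 0.975). Edem2, the mannosidase relative of Edem1, had means of 36.5 and 35.1 CPM, a ratio of 0.964 (0.839 to 1.11).

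**Figure D3:**
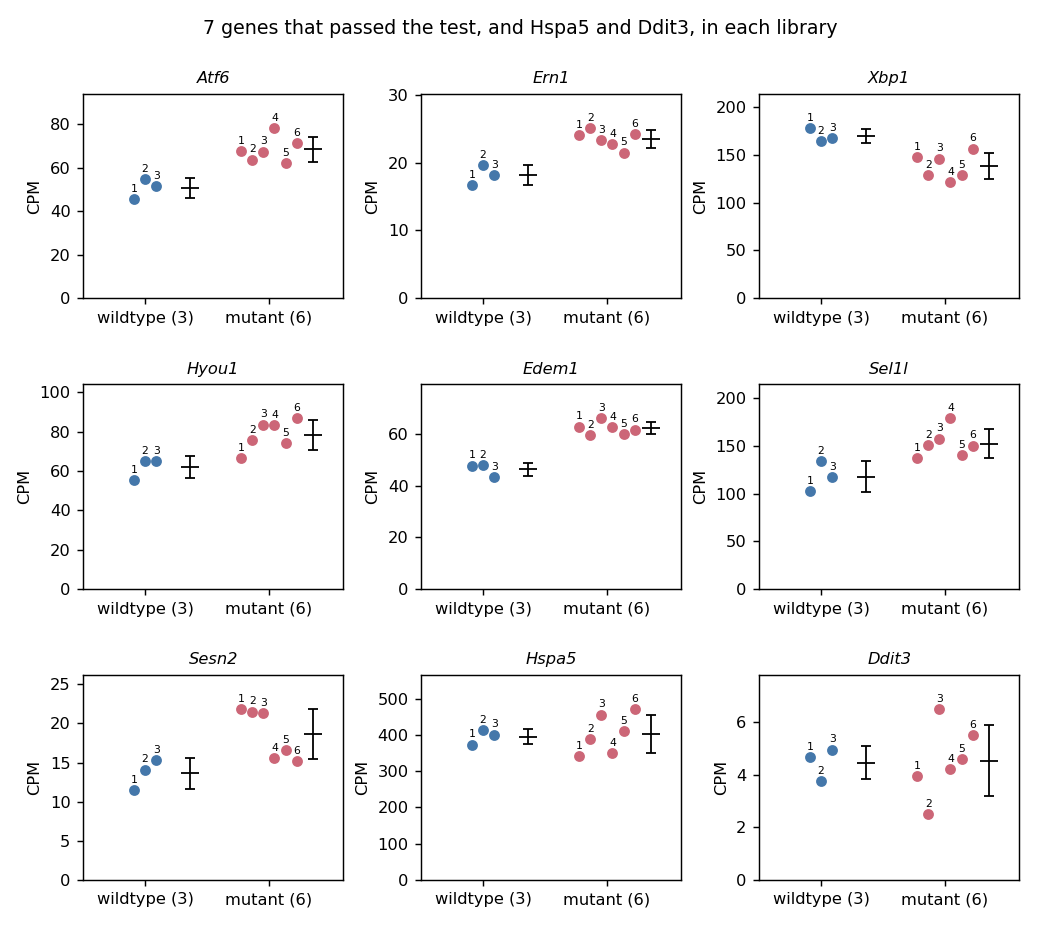
CPM in each of 3 wildtype and 6 mutant libraries, numbered by replicate, for the 7 genes that passed the test and for Hspa5 and Ddit3, with bars for the mean and SD of each group. The groups do not overlap for Atf6, Ern1, Xbp1, Hyou1, Edem1 and Sel1l, and they overlap for Sesn2, Hspa5 and Ddit3.

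Of the 8 genes of the PERK-ATF4 branch, Sesn2 was higher, none was lower and 7 did not pass, with a median log2 fold change of -0.12. The summed level was 149.9 to 152 CPM in wildtype and 121 to 152 in mutant libraries, a ratio of 0.906. Atf4 made up most of this sum, with means of 96.4 and 79.8 CPM beside 151 and 137 for the sum. Of the 8 log2 fold changes, 3 were positive and 5 negative. Atf4, the transcription factor whose mRNA is translated when eIF2α is phosphorylated, had 99.9, 90.4 and 98.8 CPM in the wildtype libraries and 65.8 to 90.0 (median 82.4) in the mutants. All mutants lay below the wildtype libraries, mutant 2 by a narrow margin. The level was 1.21-fold lower (interval of the ratio 0.721 to 0.951), with an edgeR adjusted p of 0.0531, just over the threshold. Since ATF4 is mainly set by translation, its mRNA count is not a measure of ATF4 protein.

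Ddit3 (CHOP, the transcription factor of prolonged ER stress; chr10:127290774-127296288, plus strand) was low in both genotypes. Its level was 4.68, 3.75 and 4.96 CPM in wildtype and 2.52 to 6.50 (median 4.40) in mutant libraries. The mutant range enclosed the wildtype range. The ratio was 1.02 with a wide interval of 0.711 to 1.46 (edgeR adjusted p = 0.954), and an opposite-strand gene, Mars, shares 3.97% of its exon bases.

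Sesn2 (sestrin 2, a stress-induced regulator of mTORC1 that ATF4 and p53 can both induce; chr4:132492032-132510501, minus strand) was measured at 11.4, 14.1 and 15.4 CPM in wildtype and 15.2 to 21.8 (median 19.0) in mutant libraries. Mutants 1, 2 and 3 stood together above all wildtype libraries, while mutants 4, 5 and 6 lay near wildtype 3, so the groups overlapped. The ratio was 1.37 (1.09 to 1.72; log2 0.46, SE 0.15, edgeR adjusted p = 0.048). The call was lost without wildtype 1 (0.255), wildtype 2 (0.0782), wildtype 3 (0.0654), mutant 1 (0.0712), mutant 2 (0.0826) or mutant 3 (0.0961), and with upper-quartile factors (0.0657).

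The other ATF4 and CHOP targets had overlapping groups. Trib3, a pseudokinase that ATF4 and CHOP induce, had 4.65, 5.02 and 3.85 CPM in wildtype and 2.75 to 5.34 (median 3.14) in mutant libraries (ratio 0.839, 0.586 to 1.20). Atf3, a stress-induced repressor, had 0.959, 2.77 and 1.65 CPM in wildtype and 1.45 to 2.62 (median 2.10) in mutant libraries (ratio 1.15, 0.720 to 1.84). Chac1, a glutathione-degrading enzyme, was at the edge of detection, with 7, 5 and 18 counts in the wildtype libraries and 2 to 16 in the mutants. For these 3 genes the intervals are too wide to show whether a change of 1.5-fold was present. Asns, the asparagine synthetase gene whose ATF4 core is shown above, had means of 11.7 and 10.4 CPM (edgeR adjusted p = 0.461). Ppp1r15a (GADD34, the phosphatase subunit that reverses eIF2α phosphorylation) had means of 18.0 and 17.3 CPM, a ratio of 0.958 (0.759 to 1.21).

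**Figure D4:**
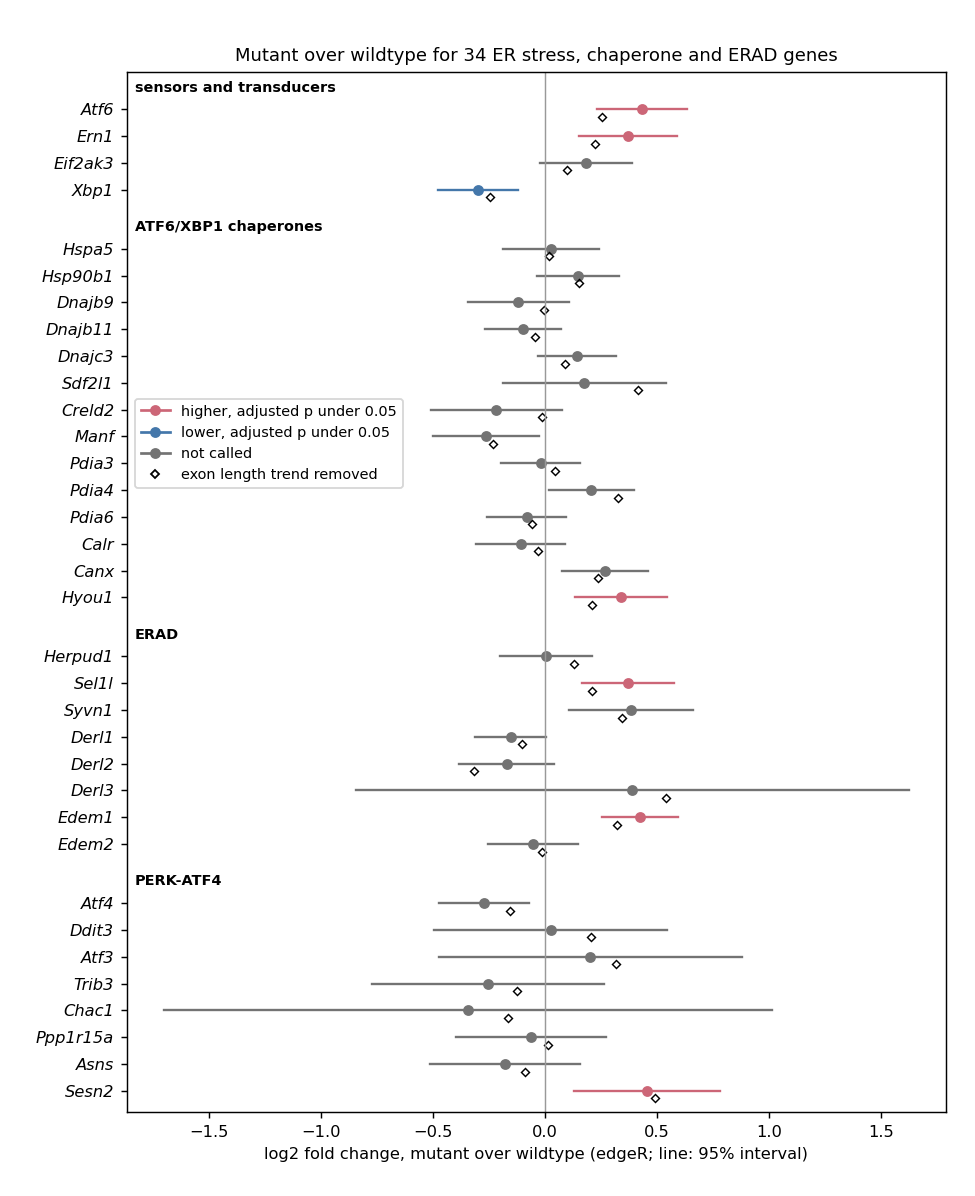
Log2 fold change, mutant over wildtype, of the 34 genes with its 95% interval (edgeR), coloured where the adjusted p was under 0.05, with open diamonds for the fit after the exon length trend was removed. The called genes lie between -0.30 and 0.46. The diamonds of Atf6, Ern1, Xbp1, Hyou1, Sel1l and Edem1 lie closer to 0 than the filled points, and that of Sesn2 lies farther from it.

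Fold changes in this comparison moved with the total exon length of genes. Over all tested genes the median log2 fold change was -0.24 in the shortest quartile, -0.067 and 0.051 in the middle ones and 0.20 in the longest, and 22.8% of the longest quartile were called higher against 2.18% of the shortest. Of the 6 members called higher, 4 (Atf6, Ern1, Hyou1 and Sel1l) are among the 5 members of the longest quartile, the other being Derl2. After removal of a smooth trend on exon length from each library, 4 members were higher and 1 lower, while 2159 of 15751 genes (13.7%) were called over the whole table, against 19.2% without the removal. Atf6 (log2 0.26, adjusted p = 0.0335), Edem1 (0.32, 0.0113) and Sesn2 (0.49, 0.0345) passed, as did Pdia4 (0.33, 0.0231), and Xbp1 stayed lower (-0.24, 0.0468). Ern1 (0.16), Sel1l (0.072) and Hyou1 (0.0986) had adjusted p over 0.05. The part of length in the results was otherwise not tested.

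**Figure D5:**
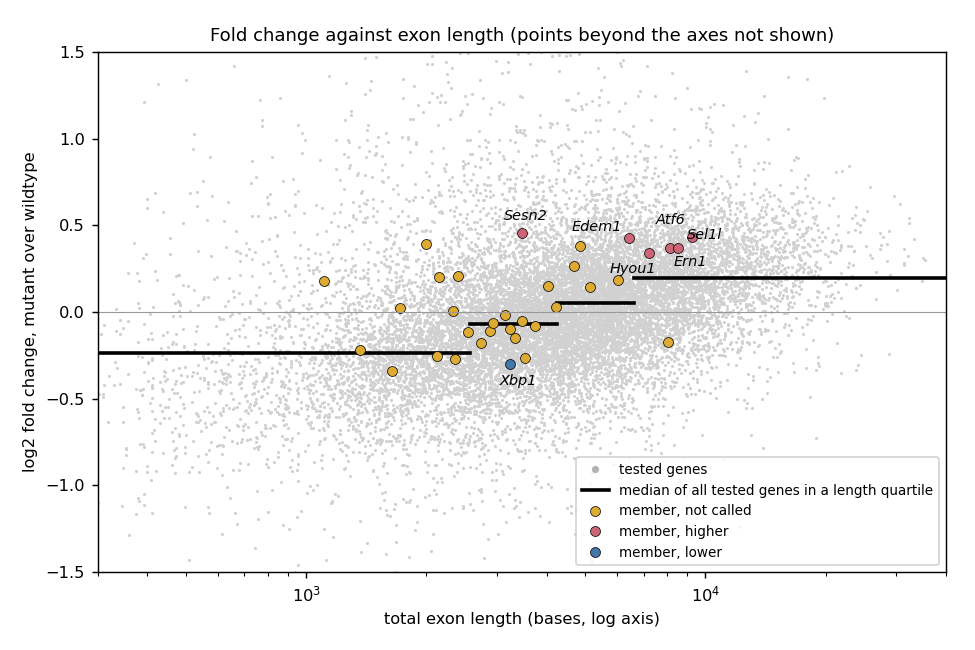
Log2 fold change, mutant over wildtype, against total exon length (log axis) for all tested genes in grey and the 34 members in colour, with bars at the median of each length quartile. Sesn2 and Edem1 lie above, and Xbp1 below, the bar of their own quartile. Atf6, Ern1, Hyou1 and Sel1l lie in the longest quartile, above its median of 0.20.

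The libraries also differed in reads on Gm42418, a locus that overlaps ribosomal RNA sequence. They made up 4.11% to 6.91% of counts in wildtype 1 and mutants 1, 3, 4, 5 and 6, and 0.0663% to 0.0708% in wildtype 2, wildtype 3 and mutant 2. The mutant-to-wildtype difference had the same sign in both sets for 24 of the 34 members. The sign could not differ between the sets for the 6 called members whose groups do not overlap, nor for Syvn1, Derl1 and Atf4. The 24 include all of these, and for them the sizes alone are informative. No such share was computed over all tested genes. The log2 ratios in the high and the low set were 0.61 and 0.26 for Atf6, 0.48 and 0.41 for Ern1, -0.35 and -0.36 for Xbp1, and 0.39 and 0.39 for Edem1. They were 0.51 and 0.22 for Hyou1, 0.57 and 0.27 for Sel1l and 0.66 and 0.55 for Sesn2. The sign differed for 10 members that were not called, namely Hspa5 (0.12 and -0.065), Hsp90b1, Pdia3, Pdia4, Edem2, Ddit3, Atf3, Trib3, Chac1 and Ppp1r15a. With the split as a covariate, a setting added after seeing the data, Atf6, Ern1, Sel1l, Edem1 and Sesn2 were higher, Xbp1 lower, and Hyou1 had an adjusted p of 0.0501. The high set holds a single wildtype library and the low set a single mutant library.

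Genes of the same pathways outside the 34 moved in both directions. Of 29 further genes of ER folding and translocation, 2 were higher and 8 lower, with a median log2 fold change of -0.098. The 4 with the lowest p were Sec61b (a subunit of the translocation channel), at 128 CPM in wildtype and 70.4 in mutants (edgeR adjusted p = 0.00182), Prdx4 (an ER peroxiredoxin; 167 and 118, 0.00337), Serp1 (a translocon-associated protein; 381 and 278, 0.00354) and Ostc (a subunit of oligosaccharyltransferase; 186 and 133, 0.00359). All 4 were lower in the mutants. The 2 that were higher, named after their values were seen, were Ero1lb, an oxidase of disulfide formation (5.81 and 8.28 CPM, 0.0216), and Uggt1, the sensor of glycoprotein folding (70.3 and 90.1 CPM, 0.0246). After removal of the length trend, 0 of the 29 were higher and 9 lower.

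Of 19 further ERAD genes, 1 was higher, the membrane ubiquitin ligase March6 (135 and 175 CPM in wildtype and mutants, edgeR adjusted p = 0.00344). Selenos, a selenoprotein of the same machinery, was lower (79.2 and 56.3 CPM, 0.00451), and the median of the 19 was -0.033. A further list held other sensors, ER transcription factors and linked genes such as Bax and Bak1. Of its 11 tested genes, Creb3l2, a relative of ATF6 with a role in secretory capacity, was higher (116 and 169 CPM, 0.00166). The pro-apoptotic Bax was lower (60.7 and 44.2 CPM, 0.0295) with overlapping groups. Its call was lost without wildtype 1 or wildtype 3, with Gm42418 as a covariate or its split, and with the length trend removed. The 1 gene of that list that was not tested, Ern2, had 0 counts in all 9 libraries.

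Of 33 further ATF4 targets, 2 were higher and 5 lower, with a median of -0.029. Pycr1 of proline synthesis (21.8 and 13.9 CPM in wildtype and mutants, edgeR adjusted p = 0.00253) fell, as did Psat1 and Phgdh of serine synthesis (484 and 352 CPM, 0.00431; 177 and 135 CPM, 0.00455). The hormone gene Fgf21 fell from 2.86 to 1.03 CPM (0.00431). Named after their values were seen, Mthfd2 of mitochondrial folate metabolism was the other that fell (10.5 and 6.52 CPM, 0.00903), and the amino acid transporters Slc7a5 (341 and 445 CPM, 0.0128) and Slc7a11 (189 and 244 CPM, 0.0214) were the ones that rose. Of 6 further kinases and phosphatases of eIF2α and its exchange factor, 0 passed in edgeR or DESeq2 and 2 had an unadjusted p under 0.05 in edgeR.

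Among 9 genes of ER stress-linked cell death, Bcl2l11 (BIM; 19.1 and 27.8 CPM, edgeR adjusted p = 0.00462) and Pmaip1 (NOXA; 0.953 and 2.42 CPM, 0.0229) were higher. Casp12, an ER-associated caspase, was lower (9.50 and 5.98 CPM, 0.0364). The Pmaip1 call was lost without wildtype 1, wildtype 2 or wildtype 3, and that of Casp12 without wildtype 1, mutant 3 or mutant 5. Both were lost with Gm42418 as a covariate or with its split. Bcl2l11 stayed called in each of these settings. The lists outside the ER served as comparison. Of 13 heat shock genes, most of them cytosolic and Hspd1 and Hspe1 mitochondrial, Hsph1 was higher (43.4 and 54.7 CPM, 0.037) and the co-chaperonin gene Hspe1 was lower (79.0 and 53.3 CPM, 0.00596). Of 5 mitochondrial stress genes, 0 were higher and Clpp was lower (47.6 and 38.0 CPM, 0.026). Without wildtype 1, the counts of higher and lower genes became 0 and 4 of 29 for folding and translocation, 1 and 0 of 19 for ERAD, 1 and 0 of 11 for sensors, 0 and 1 of 33 for ATF4 targets, 1 and 0 of 9 for cell death, and 0 and 0 of both comparison lists. Without wildtype 3 they were 2 and 5 of 29 for folding and translocation, and without mutant 4 they were 5 and 5 of 33 for ATF4 targets.

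Summed marker levels of several cell types differed between genotypes, and ER chaperone levels are known to differ between cell types. Summed CPM of 14 macrophage markers was 316 to 330 in wildtype and 446 to 634 in mutant libraries (5 genes higher, led by Lyz2 and Cd68), and that of 10 erythroid markers 535 to 952 and 1800 to 8794 (5 higher). The sum of 8 blood vessel markers was 486 to 561 and 659 to 776 (6 higher), while 5 of 8 keratocyte and stroma markers were lower, Kera and Lum among them, with sums that overlapped (35714 to 45097 and 25984 to 46212 CPM). Without wildtype 1, the calls were 5 for macrophage, 2 for erythroid (Hba-x and Slc4a1), 1 for blood vessel (Cdh5) and 1 for keratocyte markers (Tkt). Erythroid calls were 3 without wildtype 2 or wildtype 3, keratocyte calls 3 without wildtype 2, and macrophage calls 5 to 8 over the left-out libraries. The summed markers of corneal epithelium overlapped (7405 to 8392 and 7018 to 8174 CPM), with 1 of 8, Trp63, called higher, a call lost without wildtype 1 or wildtype 3 and in some other settings. Those of melanocytes and pigment epithelium were lower in every mutant library (15441 to 16112 and 13714 to 15372 CPM), with 0 of 6 called in edgeR, 1 at an unadjusted p under 0.05 and 0 with DESeq2, while limma-voom called Mitf higher and Mlana lower. Overlap was also seen for those of plasma and B cells, a cell type rich in XBP1 targets (2.80 to 5.17 and 2.73 to 7.20 CPM, 4 of 8 tested). Of 6 secretory epithelium markers, which mark another XBP1-dependent cell type, Muc5ac and Tff1 were at 0, 2 were tested, 0 passed in edgeR at an adjusted p under 0.05 and 1 at an unadjusted one, Muc4 passed as higher with DESeq2 and limma-voom, and the sum was 13.3 to 25.5 and 28.9 to 77.7 CPM. Retina markers were near 0, at 0.862 to 2.37 and 1.18 to 2.81 CPM, whereas lens markers were still present at 255 to 260 and 209 to 233 CPM. The lens sums were lower in every mutant library, with a median log2 fold change of -0.39 over 5 tested genes. Of these, 1 was called lower, Bfsp2, a call lost without wildtype 1 and with the length trend removed. Col4a1 itself rose from 625 to 1029.5 CPM (log2 0.72, edgeR adjusted p = 0.000876) and Col4a2, the gene of its partner chain, from 513 to 819 CPM (log2 0.67, 0.00166). A count per gene does not separate the mutant allele, so it does not check the genotype labels. The part of cell makeup in the changes of the 34 genes was not tested.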

How the data were processed

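The deposited table holds raw counts per gene for 9 libraries. The authors made them on GRCm38 with STAR 2.6.1 and HTSeq 0.6.1 among their tools, and also used DESeq2 1.6.3, per the submitters' processing notes. No source used here states the strand setting or the annotation release of the counting. Symbols were matched by Ensembl ID to GENCODE M21 (34490 of 35275). The counts were tested in R 4.3.3 with edgeR 4.0.16 (TMM scaling, CPM from the scaled library sizes, filterByExpr, quasi-likelihood fit on genotype, robust, Benjamini-Hochberg at 0.05 over 15825 genes). This edgeR fit alone was tried on simulated counts, with changes larger than those called among the members. SE and 95% intervals come from that fit. DESeq2 1.42.0, limma 3.58.1 and a smooth trend on exon length (mgcv 1.9.3) served as alternatives. Totals of 25995340 to 35306935 counts make genes under about 1 CPM (Derl3, Chac1) imprecise. The members and the other lists were chosen with earlier results of these data known, so no test was made over a list. All 34 members are named, and from each other list at most the 4 genes with the lowest p, except where the text says that a gene was named after its values were seen. A search of protein ends for retrieval signals was not run.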

Additional observations from a re-analysis of the deposited data

How the results depend on the processing

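Leaving out 1 library in turn gave 538 to 3265 called genes over the table, 1 to 7 members higher and 0 to 2 lower. The fewest genes and members were called without wildtype 1 (538 genes, with Edem1 as the sole member), followed for members by wildtype 3 (Atf6 and Edem1). The 3034 genes called became 4694 with limma-voom, 1032 at an adjusted p under 0.01, 1628 with Gm42418 as a covariate and 1877 with the Gm42418 split. Members higher fell to 2 (Atf6 and Edem1), and members lower to 0, at an adjusted p under 0.01. Members lower were 2 (Xbp1 and Atf4) with upper-quartile factors, with a mean of at least 1 CPM, with DESeq2 and at an adjusted p under 0.1, and 4 with limma-voom (Xbp1, Manf, Derl2 and Atf4). Canx and Syvn1 passed with RLE size factors, without the filter, with DESeq2 and under the filter on a mean of 1 CPM. In each of those settings 8 members were higher. The share of all tested genes called, 19.2% in the main fit, was 19.2%, 13%, 25.3% and 22.6% there, in that order. Both genes also passed at an adjusted p under 0.1 (8 higher) and with limma-voom, where Pdia4 passed too (9 higher). Over all tested genes 27.7% and 29.7% were called in these 2 settings. The filter at 1 CPM and DESeq2's own filter left 32 of the 34 members tested. The median log2 fold change of members ranged from -0.016 to 0.074 and the number of members with no overlap between groups from 7 to 13 over the alternatives run for each.

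For the replicate block, same-numbered wildtype and mutant libraries correlated at 0.095, 0.026 and -0.10 in their deviations from the group means. Not every library correlated best with its own number, and the labels give no shared litter or day. These values gave no sign that the numbers pair the pools, though so few libraries cannot exclude it. The block on wildtype 1 to 3 and mutants 1 to 3 called 1447 genes, 4 members higher (Atf6, Sel1l, Edem1 and Sesn2) and 1 lower. The same 6 libraries without the block called 1590 genes, 5 members higher and 0 lower.

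Several members with small or imprecise changes took the other sign in at least 1 alternative. Under the block these were Hspa5 (-0.0037), Ddit3 (-0.12), Trib3 (0.032), Chac1 (0.14) and Ppp1r15a (0.042), and in the same 6 libraries without it Ddit3 (-0.040), Trib3 (0.052), Chac1 (0.027) and Ppp1r15a (0.045). With upper-quartile factors they were Hspa5 (-0.0030), Herpud1 (-0.025) and Ddit3 (-0.0065), and with limma-voom Ddit3 (-0.034). With the length trend removed they were Pdia3 (0.046) and Ppp1r15a (0.015), with Gm42418 as a covariate Ddit3 (-0.31) and Ppp1r15a (0.060), and with the split Ddit3 (-0.30) and Ppp1r15a (0.062). With 1 library left out the log2 fold changes ranged from -0.022 to 0.070 for Hspa5, -0.056 to 0.012 for Pdia3, -0.047 to 0.075 for Herpud1, -0.0064 to 0.95 for Derl3, -0.11 to 0.011 for Edem2, -0.11 to 0.15 for Ddit3, -0.098 to 0.66 for Atf3, -0.65 to 0.36 for Chac1 and -0.14 to 0.039 for Ppp1r15a. The cause was not tested. Of 370 member values under the other settings, 323 kept their direction and side of the threshold, 10 lost the call, 18 gained it and 19 took the other sign. For left-out libraries these were 266, 16, 6 and 18 of 306.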
